A study of Mus musculus with 19 samples.

Results

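Genes that build and load major histocompatibility complex (MHC) class I molecules were followed through RNA-seq of mouse brain after bone marrow transplantation. The 10 genes were chosen by name for their place in the class I pathway, and all 10 were found among the 15634 genes of the hippocampus table and the 13783 genes of the sorted-cell table. They were the heavy chains H2-K1 and H2-D1, the light chain B2m, the class I transactivator Nlrc5, the transporter subunits Tap1 and Tap2, the loading protein Tapbp, the immunoproteasome subunits Psmb8 and Psmb9, and the trimming peptidase Erap1. Every mouse received total-body irradiation of 1100 cGy in split doses and 5000000 T-cell-depleted (TCD) marrow cells. With the marrow, 500000 splenic T cells were given to mice with chronic graft-versus-host disease (GVHD) and 0 to mice of the TCD control groups. Cells sorted from brain on day 70 gave 6 libraries of donor bone marrow-derived macrophages from GVHD mice, 4 of host microglia from GVHD mice and 3 of host microglia from TCD mice. Whole hippocampus on day 80 gave 3 GVHD and 3 TCD libraries. Strain, sex, age and the alleles of donor and host are not given in the sources used here. Nor do they state whether each library came from a separate animal, so p-values measure the spread between these libraries. Donor cells differed from host cells in cell type and in origin at once, and the design cannot tell these apart.

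Class I molecules show peptides from inside a cell to CD8 T cells. The proteasome cuts proteins into peptides, the TAP transporter moves them into the endoplasmic reticulum, tapasin holds the transporter beside an empty heavy chain paired with beta-2-microglobulin, and peptidases trim the peptides to fit. Interferon raises these genes together, through factors such as IRF1 and NLRC5, and swaps catalytic subunits of the constitutive proteasome for those of the immunoproteasome. In a resting brain class I levels are low in most cell types, and microglia are among the cells that raise them in inflammation. After an allogeneic transplant, class I molecules are among the antigens that donor T cells can recognise.

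Most of these genes are neighbours. In the annotation of the mouse build GRCm38, 7 of the 10 lie on chromosome 17 between 33915899 and 35267499, in the MHC. Psmb9, Tap1, Psmb8 and Tap2 follow each other there, from 34181987 to 34216321. B2m is on chromosome 2 (122147686 to 122153083), Nlrc5 on chromosome 8 (94434356 to 94527272) and Erap1 on chromosome 13 (74639568 to 74693201). H2-K1 and H2-D1 are related in sequence to each other and to other class I genes, and their transcripts were not compared here. The authors' counting could have moved reads between them, so their separate values are uncertain. How reads from class I alleles that differ from the reference were counted was not tested.

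NLRC5 is known to act on the SXY module of class I promoters, whose X2 and Y boxes lie a fixed distance apart. Promoter sequence from RefSeq (GRCm38.p6) is shown for a heavy chain and for the light chain because their pieces of this module can be compared letter by letter. Capitals mark, in order along the H2-K1 strand, a kB site, an interferon-stimulated response element (ISRE) variant on the opposite strand, an X2 box and a Y box. In B2m they mark an ISRE, a kB site on the opposite strand, an X2 box and a Y box. The H2-K1 stretch is chr17:34000349-34000468 on the minus strand and the B2m stretch is chr2:122147538-122147648 on the plus strand, both 5′ to 3′ along the gene.
H2-K1: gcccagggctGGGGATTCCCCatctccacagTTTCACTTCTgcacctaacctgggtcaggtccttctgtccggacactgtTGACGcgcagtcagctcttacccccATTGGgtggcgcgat
B2m: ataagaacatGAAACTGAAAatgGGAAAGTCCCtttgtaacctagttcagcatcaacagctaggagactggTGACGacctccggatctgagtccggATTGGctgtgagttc
The 30 bases from the X2 to the Y box of H2-D1, at chr17:35262993-35263022 on the plus strand, are shown for comparison with the same element in both stretches.
H2-D1: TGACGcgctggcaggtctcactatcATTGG

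The letters searched on both strands were TGACG for the X2 box and ATTGG for the Y box, with the kB site by its consensus. The ISRE was searched as GAAA, any 2 bases and GAAA, and its variant as AGAA, any 2 bases and GAAA. These last share most positions and were counted apart. In each window, from 250 bases before to 50 after a gene's start, the X2 and Y letters alone were common, in 20.8% and 37.4% of 32851 windows. Both letters in the same orientation with 18 to 22 bases between them stood in 88 windows, or 0.268%. H2-K1, H2-D1 and B2m each held the pair with exactly 20 bases between the boxes. The kB consensus, in 4.51% of all windows, matched in the same 3 genes, where overlapping matches give H2-K1 and H2-D1 2 hits each. The ISRE letters, in 3.44% of windows, stood in B2m and Erap1, and the variant, in 3.02%, in H2-K1 and H2-D1. Over 120 aligned bases the upstream stretches of H2-K1 and H2-D1 were equal at 108 (90.0%). Windows were found for 8 of the 10 genes, and Nlrc5 and Tap2 were not searched. Tap1 and Psmb9 start 225 bases apart on opposite strands, at 34187556 and 34187330 of chromosome 17, so their windows overlap by 275 bases. These letters were chosen with the sequences in view, and a match describes the sequence only.

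**Figure D1:**
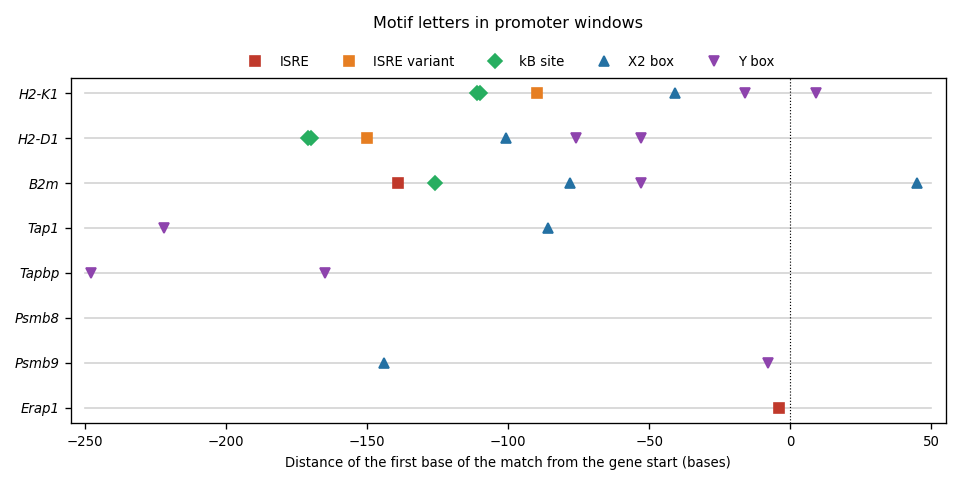
Motif matches in the promoter windows of 8 class I pathway genes. The horizontal axis gives the distance in bases of the first base of each match from the gene's start, and each row is a gene. H2-K1, H2-D1 and B2m carry the X2 box (upward triangle) followed by the Y box (downward triangle) with 20 bases between them.

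The values are normalised counts, with library totals of 982114.4 to 1078635.6 in hippocampus and 890564.5 to 1090630.5 in sorted cells. Low values showed that a library rested on an estimated 16673602 to 18546915 reads in hippocampus and 7901511 to 35844661 in sorted cells. The labelled cell types carried their markers. The 10 macrophage markers summed to 95299.995 to 115432 in donor macrophages, 4644 to 9953 in GVHD host microglia and 2191 to 4233 in TCD host microglia. The 10 microglia markers summed to 12738 to 18528 in donor macrophages, 44003 to 53158 in GVHD host microglia and 51109 to 64209 in TCD host microglia. Each sorted group held 1 library titled API183, its library 1, while the others were API197, and what API stands for is not stated. The first TCD host library has Syn in place of TCD in its description, and Syn is not explained. Where a host difference or a call of the 10 genes rests on this library, the value without it is given too.

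In host microglia, every class I pathway gene had a higher fitted level in GVHD than in TCD mice, and 2 of the 10 passed the test. These were H2-D1 and Nlrc5, at log2 fold changes of 1.203 ± 0.169 and 1.379 ± 0.191 (SE). Both are read against a background in which 14 of 13086 tested genes were called (0.107%), 12 of them higher (0.0917%). Called means an adjusted p under 0.05 in limma, Benjamini-Hochberg adjusted over all tested genes. The other 8 had log2 fold changes between 0.17 and 1.01 and did not pass. The 10 genes had a median log2 fold change of 0.80, and all tested genes a median of -0.03. Of the 10, 7 had an unadjusted p under 0.05, as did 6.85% of tested genes. GVHD and TCD host libraries did not overlap in 7 of the 10 genes, all higher in GVHD, against 3.57% of tested genes without overlap in that direction.

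Donor macrophages carried more RNA than GVHD host microglia for 5 of the 10 genes and less for 1. Nlrc5, Tap1, Tap2, Psmb8 and Psmb9 were higher and Erap1 was lower, while H2-K1, H2-D1, B2m and Tapbp did not pass. In this comparison 38.6% of tested genes were called, 19.4% higher and 19.2% lower, so a call by itself was common. Neutrophil markers differed as well. The 8 genes summed to 21.2 to 611 in donor macrophages and 1.68 to 20.9 in GVHD host microglia, with 6 of 8 called higher, and their part in the class I values was not tested. None of the 10 genes separated all donor from all GVHD host libraries, against 27.9% of tested genes that did in either direction. Against TCD host microglia, donor macrophages were higher for 8 of 10 genes, where 37.0% of tested genes were called and 18.4% were higher. B2m and Erap1 were the exceptions. In 6 of the 10 every donor library lay above every TCD host library, against 14.4% of tested genes. Without TCD host library 1, 8 of the 10 were again called higher, where 4327 genes were called in all. The 8 ran from 0.54 for Tapbp to 2.29 for Nlrc5 on the log2 scale, and B2m at 0.32 and Erap1 at -0.14 were not called. Rescaling the libraries to equal totals moved the median of all tested genes to -0.12 against GVHD host, where it was 0.04, and to -0.15 against TCD host, where it was -0.01. All 3 sorted comparisons share libraries and are not independent of each other.

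**Figure D2:**
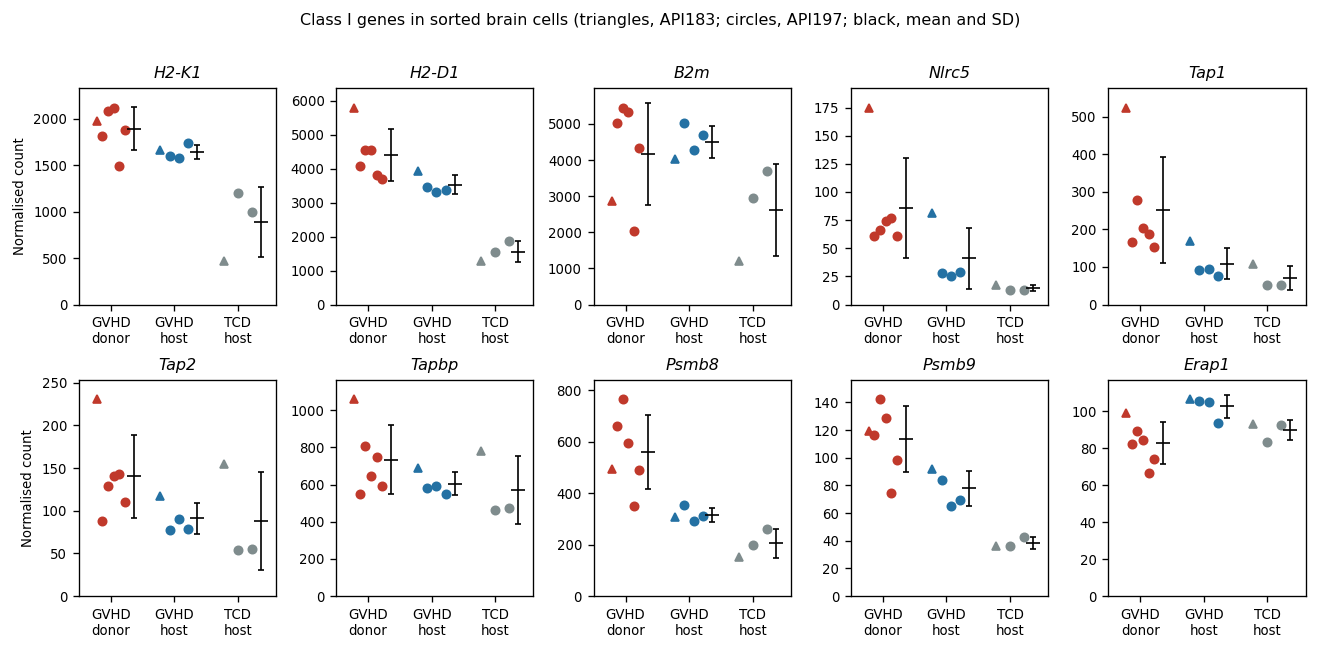
Normalised counts of the 10 genes in 13 sorted libraries, a panel per gene, with donor macrophages, GVHD host microglia and TCD host microglia from left to right. Triangles are API183 libraries and circles API197 libraries, and black marks give the mean and SD. H2-D1 lies at 3326 or above in every GVHD library of either cell type and at 1871 or below in every TCD host library.

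The heavy chains were high in both GVHD cell types. H2-D1, a classical heavy chain, had normalised counts of 3691 at the lowest, 4303 at the median and 5791 at the highest in donor macrophages. GVHD host microglia had 3935, 3469, 3326 and 3370.1 in libraries 1 to 4, against 1269, 1534 and 1871 in TCD host libraries 1 to 3. All GVHD host values lay above all TCD host values, and the donor range overlapped the GVHD host range. The GVHD host excess over TCD host passed the test (log2 fold change 1.203 ± 0.169, adjusted p = 0.0134, limma), and the donor excess over GVHD host did not (0.32 ± 0.14, adjusted p = 0.0972) but passed with library weights (0.35 ± 0.13, adjusted p = 0.0389). Donor macrophages exceeded TCD host microglia by 1.52 ± 0.16 on the log2 scale (adjusted p = 8e-06).

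H2-K1, the other heavy chain, spanned 1491, 1931 and 2119 normalised counts at the lowest, median and highest donor library. GVHD host microglia had 1666, 1606, 1575 and 1739, and TCD host microglia had 466, 1204 and 994. The GVHD host libraries lay within the donor range, and TCD host library 1 was far below the other two of its group. The difference between GVHD and TCD hosts was 0.97 ± 0.23 on the log2 scale and did not pass (adjusted p = 0.163, limma). Without TCD host library 1 it was 0.57 ± 0.16 (adjusted p = 0.425). Donor macrophages differed from GVHD host microglia by 0.17 ± 0.20 (adjusted p = 0.527) and from TCD host microglia by 1.14 ± 0.22 (adjusted p = 0.00113).

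B2m encodes beta-2-microglobulin, the light chain that every class I heavy chain needs. Donor libraries held 2026 at the lowest, 4686 at the median and 5445 at the highest. GVHD host microglia had 4025, 5037, 4291 and 4687, against 1199, 2951 and 3699 in TCD host microglia. Donor libraries 1 and 5 fell below every GVHD host library, and the hosts did not overlap. The low libraries were also set apart by the slope of log2 value on GC content per 10 percentage points, at 0.29 in donor library 1, 0.30 in donor library 5 and 0.36 in TCD host library 1, against -0.17 to 0.02 in the other sorted libraries. B2m has a GC content of 41.2%. With GC correction the log2 differences were 0.86 between the hosts, -0.21 for donor against GVHD host and 0.65 for donor against TCD host. No sorted comparison passed for B2m: GVHD against TCD host gave 0.87 ± 0.33 (adjusted p = 0.605, limma), donor against GVHD host -0.25 ± 0.28 (adjusted p = 0.505) and donor against TCD host 0.62 ± 0.31 (adjusted p = 0.138). Without TCD host library 1 the host difference was 0.54 ± 0.35. The last comparison passed with the title number as a block (0.89 ± 0.24, adjusted p = 0.020). It also passed with that block and GC correction (0.90, adjusted p = 0.00797). Donor and TCD host cells came from different mice, so that number cannot mark the same animal. The comparison passed too with library weights (0.62, adjusted p = 0.0177) and without donor library 5 (0.82 ± 0.20, adjusted p = 0.00541).

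Nlrc5 encodes the transactivator of class I genes. Its values were 60.5, 70.1 and 175 at the lowest, median and highest donor library. GVHD host libraries 1 to 4 had 81.5, 28.0, 25.7 and 29.2, and TCD host libraries had 17.5, 13.3 and 12.6. In each group the API183 library was the highest, and GVHD host library 1 reached into the donor range. Nlrc5 was higher in GVHD than in TCD host microglia (adjusted p = 0.0134, limma), in donor macrophages than in GVHD host microglia (1.199 ± 0.162, adjusted p = 7.14e-05) and in donor macrophages than in TCD host microglia (2.58 ± 0.18, adjusted p = 2.29e-07).

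The host calls of H2-D1 and Nlrc5 depended on single libraries and on the model. Neither gene was called without GVHD host library 1, 2 or 4, where adjusted p ran from 0.0544 to 0.106, and only Nlrc5 was called without TCD host library 2. Without TCD host library 1 both were called, H2-D1 at 0.96 ± 0.15 (adjusted p = 0.0484) and Nlrc5 at 1.06 ± 0.14 (adjusted p = 0.0318). The log2 fold changes stayed between 0.96 and 1.23 for H2-D1 and between 1.06 and 1.535 for Nlrc5 whichever of these libraries was left out. The other 8 genes lay between 0.17 and 0.90 without TCD host library 1, and none of them was called. GC correction ended the call of H2-D1 (1.27, adjusted p = 0.0596), and leaving out the API covariate ended that of Nlrc5 (1.28, adjusted p = 0.471). Neither gene was called with a replicate block, by title or by description number (adjusted p from 0.178 to 0.462). Among 10 macrophage markers 1 was called higher in GVHD host microglia, as were 0.0917% of tested genes. This was the class II gene H2-Ab1, whose call was lost with the description number as a block, where 0 tested genes were called. The summed level of all 10 markers did not overlap between the hosts. The part of these markers in the class I difference was not tested.

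Tap1 and Tap2 encode the paired subunits of the peptide transporter. Tap1 had 152, 196 and 524 at the lowest, median and highest donor library, and 169, 91.2, 95.9 and 76.9 in GVHD host libraries 1 to 4. TCD host libraries had 107, 52.0 and 52.6. The API183 library stood highest in all 3 groups. Tap1 was higher in donor macrophages than in GVHD host microglia (1.23 ± 0.16, adjusted p = 4.29e-05, limma) and TCD host microglia (1.95 ± 0.17, adjusted p = 1.88e-06). Between the hosts it gave 0.72 ± 0.18 and did not pass (adjusted p = 0.195).

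Tap2 had 87.7, 135 and 231 at the lowest, median and highest donor library. GVHD host libraries held 117, 77.7, 90.7 and 78.9, and TCD host libraries held 155, 54.4 and 55.5. TCD host library 1 lay above all GVHD host libraries, unlike its place in the heavy chains. Donor macrophages were higher than GVHD host microglia by 0.65 ± 0.17 (adjusted p = 0.00743, limma) and than TCD host microglia by 0.94 ± 0.18 (adjusted p = 0.00143). Both calls were lost without the API covariate, at 0.57 (adjusted p = 0.172) and 0.78 (adjusted p = 0.0914). The host difference was 0.29 ± 0.20 (adjusted p = 0.847), and 0.52 without TCD host library 1 (adjusted p = 0.671).

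Tapbp encodes tapasin, which ties the transporter to the empty heavy chain. Donor libraries had 549.9, 697 and 1059 at the lowest, median and highest. GVHD host microglia had 692, 581, 593 and 549, against 780.2, 461 and 471 in TCD host microglia. All groups overlapped. Donor macrophages exceeded TCD host microglia (0.46 ± 0.13, adjusted p = 0.0155, limma). That call was lost without TCD host library 2 or 3 (adjusted p = 0.0768 and 0.0680), after rescaling to equal totals (0.30, adjusted p = 0.0687) and without the API covariate (0.37, adjusted p = 0.214). The excess over GVHD host microglia was 0.30 ± 0.12 (adjusted p = 0.0694) and passed with the description number as a block (0.38 ± 0.12, adjusted p = 0.0364). It also passed without donor library 2 (0.35 ± 0.12, adjusted p = 0.0311) and with quantile normalisation (0.33, adjusted p = 0.0483).

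Psmb8 and Psmb9 encode catalytic subunits of the immunoproteasome, which cuts peptides suited to class I grooves. Psmb8 had 351, 545 and 765 at the lowest, median and highest donor library. GVHD host microglia had 308, 355, 292 and 311, and TCD host microglia had 153, 198 and 262. Donor library 5, the lowest of its group, lay just under the highest GVHD host library, and the hosts did not overlap. Psmb8 was higher in donor macrophages than in GVHD host microglia (0.76 ± 0.19, adjusted p = 0.00697, limma) and TCD host microglia (1.40 ± 0.21, adjusted p = 0.000202), while the host difference of 0.64 ± 0.23 did not pass (adjusted p = 0.529).

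Psmb9 had 74.4, 118 and 142 at the lowest, median and highest donor library, with 92.1, 84.1, 65.3 and 69.6 in GVHD host microglia. TCD host microglia had 36.0, 35.8 and 43.0, below all other libraries. The host difference was 1.01 ± 0.20 (adjusted p = 0.0968, limma), the third largest of the 10 genes, and passed with library weights (0.92 ± 0.16, adjusted p = 0.0346). Donor macrophages exceeded TCD host microglia by 1.54 ± 0.18 (adjusted p = 2.87e-05). Their excess over GVHD host microglia (0.53 ± 0.17, adjusted p = 0.0233) was lost with the description number as a block (0.49 ± 0.17, adjusted p = 0.0619). It was also lost without GVHD host library 3 or 4 (adjusted p = 0.0804 and 0.0706), after rescaling to equal totals (0.36, adjusted p = 0.114), with quantile normalisation (0.47, adjusted p = 0.0559) and with GC correction (0.45, adjusted p = 0.10).

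Erap1, the peptidase that trims peptides in the endoplasmic reticulum, went the other way in donor cells. It had 66.6, 83.2 and 99.3 at the lowest, median and highest donor library. GVHD host microglia had 106, 106, 105 and 93.5, and TCD host microglia had 93.3, 83.6 and 92.5. The hosts did not overlap, by the narrow margin of 93.5 against 93.3. Erap1 was lower in donor macrophages than in GVHD host microglia by -0.30 ± 0.10 on the log2 scale (adjusted p = 0.0265, limma). That call was lost with the description number as a block (-0.32 ± 0.12, adjusted p = 0.0772). It was also lost without donor library 6 or GVHD host library 2 or 3 (adjusted p from 0.0539 to 0.0830), while rescaling to equal totals gave -0.48 (adjusted p = 0.00146). The other comparisons did not pass, at 0.20 ± 0.12 between the hosts (adjusted p = 0.808) and -0.10 ± 0.11 for donor against TCD host (adjusted p = 0.520).

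**Figure D3:**
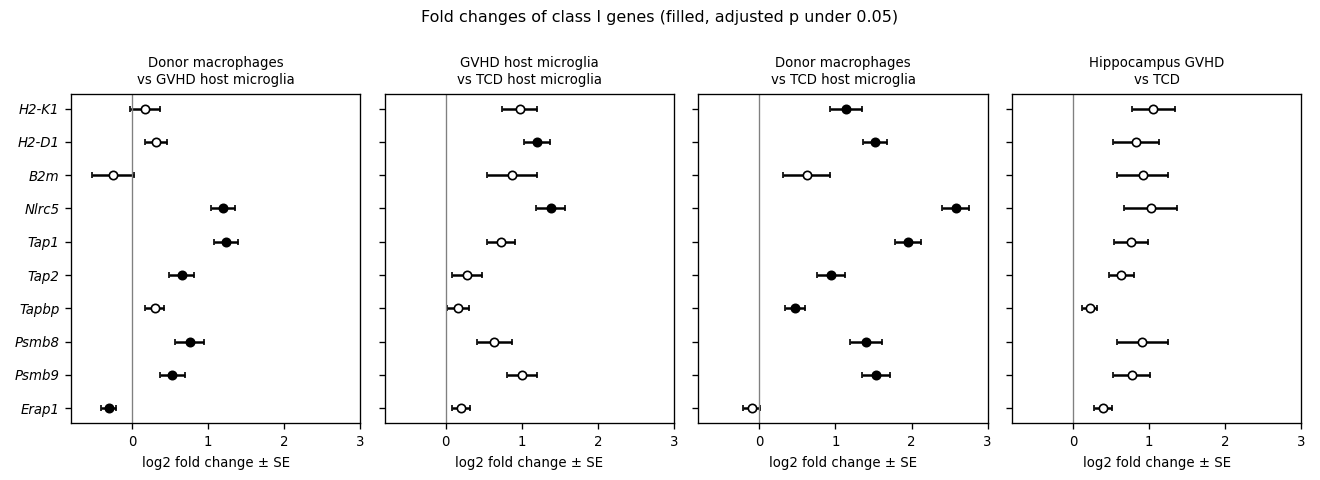
Log2 fold changes of the 10 genes, with SE, in 4 comparisons fitted with limma. Filled points have an adjusted p under 0.05. Nlrc5 and H2-D1 are filled for GVHD against TCD host microglia, 6 genes for donor macrophages against GVHD host microglia, 8 against TCD host microglia, and none in hippocampus, where all 10 lie right of 0.

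API183 libraries stood apart for part of the pathway. In the same model, API183 exceeded API197 by 1.13 ± 0.17 on the log2 scale for Nlrc5 (adjusted p = 0.00304, limma), 1.15 ± 0.16 for Tap1 (adjusted p = 0.00303), 0.95 ± 0.17 for Tap2 (adjusted p = 0.00867) and 0.56 ± 0.12 for Tapbp (adjusted p = 0.0196). These are 4 of the 10 genes higher, with 16.5% of tested genes called and 7.93% higher. The other 6 were not called, with B2m at -0.70 ± 0.29 (adjusted p = 0.0971). This contrast was looked at after the values were seen. T cell genes moved with the API number too: 9 measured T cell genes summed to 30.4 in donor library 1, 21.4 in GVHD host library 1 and 12.5 in TCD host library 1, and to between 3.27 and 8.99 in the API197 libraries. Of 7 tested T cell genes, 6 were called higher in API183. Their part in the result was not tested.

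Within the API197 libraries, all 10 genes were higher in each of 3 GVHD host libraries than in both TCD host libraries, against 12.6% of tested genes. None of the 10 was called there, and 1 of 12842 tested genes was (0.00779%). H2-D1 gave 1.00 ± 0.15 and Nlrc5 1.04 ± 0.14 on the log2 scale, both with an adjusted p of 0.0829 (limma). Between the single API183 libraries of the hosts the log2 difference was positive for 8 of 10 genes, with Tap2 at -0.40 and Tapbp at -0.17. For donor macrophages against GVHD host microglia in API197, 6 of 10 genes were called (34.0% of tested genes) and 3 were higher without overlap (18.1%). These 3 were H2-D1, Nlrc5 and Tap1, while Erap1 was lower without overlap (18.9%). For donor macrophages against TCD host microglia in API197, 8 of 10 were called (32.9%) and 8 were higher without overlap (22.1%).

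Per kilobase of exon, the genes of the pathway kept far-apart levels. The length was that of all annotated exons of a gene merged, 860 bases for B2m and 3381 for Psmb8. A gene's level here depends on that length, and other lengths were not tried. In donor macrophages, mean normalised counts per kilobase were 4854 for B2m, 1709 for H2-D1 and 645 for H2-K1, and the ranges of these 3 did not overlap. Tapbp at 202 and Psmb8 at 166 overlapped each other and lay below the heavy chains. Tap1 at 46.0, Tap2 at 37.1 and Psmb9 at 31.0 formed an overlapping group below these, and Erap1 at 11.3 and Nlrc5 at 10.1 overlapped at the low end. In GVHD host microglia B2m had 5244, H2-D1 1367 and H2-K1 560.4 per kilobase, against 3043, 604 and 302 in TCD host microglia.

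Immunoproteasome subunits were set against the constitutive subunits that they replace, Psmb8 over Psmb5, Psmb9 over Psmb6 and Psmb10 over Psmb7, as ratios of values per kilobase. The Psmb8 to Psmb5 ratio was 3.50 ± 0.48 in donor macrophages, 2.32 ± 0.46 in GVHD host microglia and 1.44 ± 0.25 in TCD host microglia (SD, n = 6, 4 and 3). The Psmb9 to Psmb6 ratio was 0.427 ± 0.143, 0.315 ± 0.0959 and 0.158 ± 0.0320 in the same order of groups. For both ratios all GVHD host libraries lay above all TCD host libraries. The Psmb10 to Psmb7 ratio was 4.44 ± 1.21, 3.01 ± 0.70 and 2.84 ± 0.80, and the hosts overlapped. For the Psmb9 and Psmb10 ratios, though not for that of Psmb8, the API183 library was the highest of every sorted group. Its Psmb10 ratio was 3.995 in GVHD host and 3.766 in TCD host microglia. The API197 libraries had 3.046, 2.569 and 2.443 in GVHD host and 2.314 and 2.439 in TCD host microglia. Psmb5, Psmb6 and Psmb7 were not called in any of the 4 comparisons. The ratios were described and not tested, and their size depends on the merged exon lengths.

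**Figure D4:**
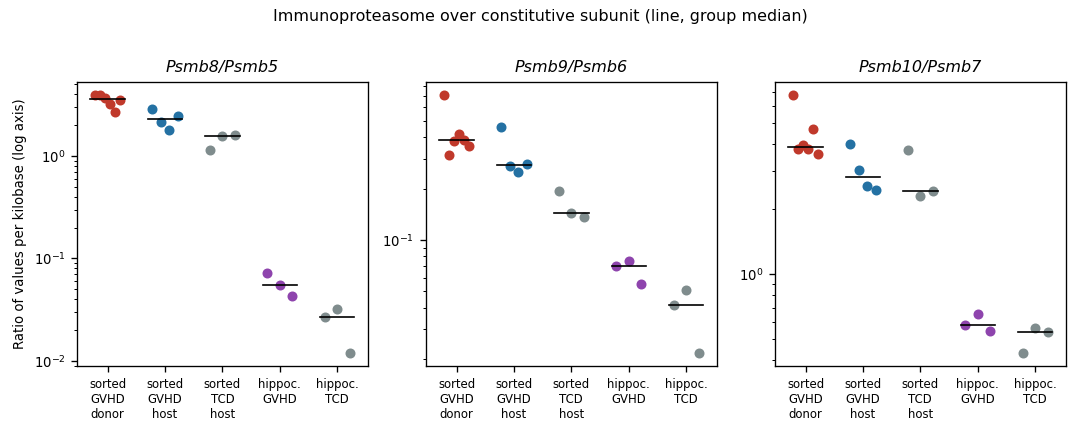
Ratio of an immunoproteasome subunit to its constitutive counterpart in every library, from values per kilobase, on a log axis. Points are libraries and lines group medians, with donor macrophages, GVHD host, TCD host, GVHD hippocampus and TCD hippocampus from left to right. The Psmb8 to Psmb5 ratio is above 1 in every sorted library and at most 0.0725 in every hippocampus library.

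The regulators above the pathway were read from a list of 16. In host microglia 1 of the 16 was called, where 0.107% of tested genes were. This was Ciita, the class II transactivator, at 2.02 ± 0.22 on the log2 scale (adjusted p = 0.00357, limma). Its values were 22.4, 4.99, 4.97 and 6.92 in GVHD host libraries and 3.89, 0.362 and 1.21 in TCD host libraries. The values of TCD host libraries 2 and 3 rested on about 6 and 10 reads. With the description number as a block the call of Ciita was lost, as 0 of 13086 tested genes were called there. The host difference of Irf1, an interferon-induced factor, was 0.65 ± 0.17 (adjusted p = 0.195, limma) and did not pass, although its host libraries did not overlap.

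In donor macrophages 6 of the 16 regulators were higher and 2 lower than in GVHD host microglia, where 19.4% of tested genes were higher and 19.2% lower. Ciita was higher by 3.70 ± 0.18 (adjusted p = 1.54e-08, limma) and Stat2, which acts in type I interferon signalling, by 0.85 ± 0.11 (adjusted p = 7.04e-05). Nfkb1, a subunit of NF-kB, was lower by -0.86 ± 0.15 (adjusted p = 0.000576), as was Nfya, a subunit of the factor that binds the Y box, by -0.59 ± 0.13 (adjusted p = 0.00333). Against TCD host microglia 5 were higher and 2 lower, where 37.0% of tested genes were called and 18.4% were higher, with Ciita at 5.72 ± 0.20 and Irf1 at 1.00 ± 0.15, both called higher. Of 8 interferon receptor and kinase genes, 2 were higher and 1 lower in donor macrophages than in GVHD host microglia, which is close to the 38.6% of tested genes called. Ifnar1, a chain of the type I interferon receptor, was higher by 1.98 ± 0.11 (adjusted p = 3.8e-08). Between the hosts 0 of the 8 were called, where 0.107% of tested genes were. Of the 8, 1 had an unadjusted p under 0.05 in the same limma fit, as did 6.85% of tested genes.

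The 15 other listed genes of peptide supply and class I folding did not share one direction. In donor macrophages against GVHD host microglia 2 were higher and 3 lower, no larger a share than the 38.6% of tested genes called. Psme1, a subunit of the proteasome activator PA28, was higher by 0.59 ± 0.13 (adjusted p = 0.00283, limma). Pdia3, a thiol reductase of the loading complex, was lower by -0.51 ± 0.11 (adjusted p = 0.00224), and the chaperone gene Canx was lower by -0.34 ± 0.10 (adjusted p = 0.0193). Against TCD host microglia 4 were higher and 3 lower, where 37.0% of tested genes were called, with Psme1 at 1.09 ± 0.14 and Psmb10 at 0.77 ± 0.19. Between the hosts 0 of 15 were called, where 0.107% of tested genes were. Of the 15, 3 had an unadjusted p under 0.05 in limma, as did 6.85% of tested genes. Psme1 was at 0.50 ± 0.15 (adjusted p = 0.387, limma). The median log2 fold change of the 15 between the hosts was 0.05, against 0.80 for the 10 genes of the pathway.

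Likeness of profile was measured as the root mean square distance between log2 values, each gene centred on its mean over the 13 sorted libraries, among 5352 genes whose group means spanned at least 0.5. The genes nearest to H2-K1 were H2-M3 (0.196), Tnfsf13b (0.203), H2-T10 (0.242), Pla2g16 (0.248) and Ly9 (0.260), and H2-M3 and H2-T10 are themselves class I genes. H2-D1 stood at 0.284 from H2-K1 and Nlrc5 at 0.823. Tap1 was nearest to Cemip2 (0.253), Prr5l (0.293), Itgax (0.335), Oas1a (0.341) and Gpr35 (0.345). Among the 5 genes nearest to Nlrc5 were C1ra (0.317), Itgax (0.322), Misp (0.376) and Tnfsf8 (0.426), and Nlrc5 stood at 0.391 from Tap1. The libraries share the API split, and the distances are descriptions.

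In whole hippocampus all 10 genes were higher in every GVHD library than in every TCD library, and none of the 10 passed the test. No overlap in that direction was found for 10.8% of tested genes. All 10 had an unadjusted p under 0.05, as did 17.0% of tested genes, and adjusted p ran from 0.121 to 0.291 (limma). In all, 69 of 14404 tested genes were called (0.479%), 46 of them higher (0.319%). The 10 genes had a median log2 fold change of 0.80, and all tested genes a median close to 0, at 0.005. Bulk tissue cannot tell more cells of a type from more RNA per cell.

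H2-K1 had 100.7, 91.2 and 94.2 normalised counts in GVHD hippocampus libraries 1 to 3, against 56.9, 64.0 and 25.4 in TCD libraries 1 to 3. H2-D1 had 162, 147 and 130.0 in GVHD, against 108, 113 and 44.6 in TCD. B2m had 257, 211 and 244 in GVHD, against 164, 183.1 and 64.3 in TCD. TCD library 3 was far below the other two for each of these chains. The log2 fold changes were 1.06 ± 0.29 for H2-K1 (adjusted p = 0.132, limma), 0.83 ± 0.31 for H2-D1 (adjusted p = 0.222) and 0.92 ± 0.33 for B2m (adjusted p = 0.215).

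The transactivator and the transporter lay lower. Nlrc5 had 5.73, 5.73 and 2.87 in GVHD hippocampus, against 2.56, 2.67 and 0.612 in TCD, resting on about 106, 101 and 49 reads against 44, 45 and 10. GVHD library 3 was close to TCD libraries 1 and 2 for this gene. Tap1 had 14.9, 15.1 and 11.2 in GVHD, against 9.54, 9.22 and 5.01 in TCD. Tap2 had 17.1, 17.1 and 14.8 in GVHD, against 12.3, 10.99 and 7.58 in TCD. The log2 fold changes were 1.02 ± 0.35 for Nlrc5 (adjusted p = 0.196, limma), 0.76 ± 0.22 for Tap1 (adjusted p = 0.154) and 0.64 ± 0.17 for Tap2 (adjusted p = 0.121).

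Of the loading, cutting and trimming genes, Tapbp moved least. It had 33.2, 36.5 and 33.6 in GVHD hippocampus, against 30.8, 31.3 and 26.3 in TCD, a log2 fold change of 0.22 ± 0.10 (adjusted p = 0.291, limma). Psmb8 had 12.4, 9.20 and 7.74 in GVHD, against 6.69, 6.47 and 2.14 in TCD (0.91 ± 0.34, adjusted p = 0.219). Psmb9 had 6.39, 6.78 and 5.63 in GVHD, against 3.84, 4.62 and 1.84 in TCD (0.77 ± 0.25, adjusted p = 0.172). For both subunits TCD library 3 lay far below the other two of its group. Erap1 had 16.7, 15.2 and 18.5 in GVHD, against 11.3, 13.8 and 12.4 in TCD (0.40 ± 0.12, adjusted p = 0.157), and was the only one of the 10 for which TCD library 3 was not the lowest. The Psmb8 to Psmb5 ratio was 0.0567 ± 0.0149 in GVHD and 0.0237 ± 0.0106 in TCD (SD, n = 3 each), and the Psmb9 to Psmb6 ratio 0.0670 ± 0.0105 and 0.0378 ± 0.0148, without overlap for either. The Psmb10 to Psmb7 ratio was 0.593 ± 0.055 and 0.510 ± 0.070, and its groups overlapped. Without TCD library 3 the log2 difference of the Psmb8 ratio went from 1.35 to 0.91 and that of the Psmb9 ratio from 0.90 to 0.54. That of the Psmb10 ratio went from 0.22 to 0.27.

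**Figure D5:**
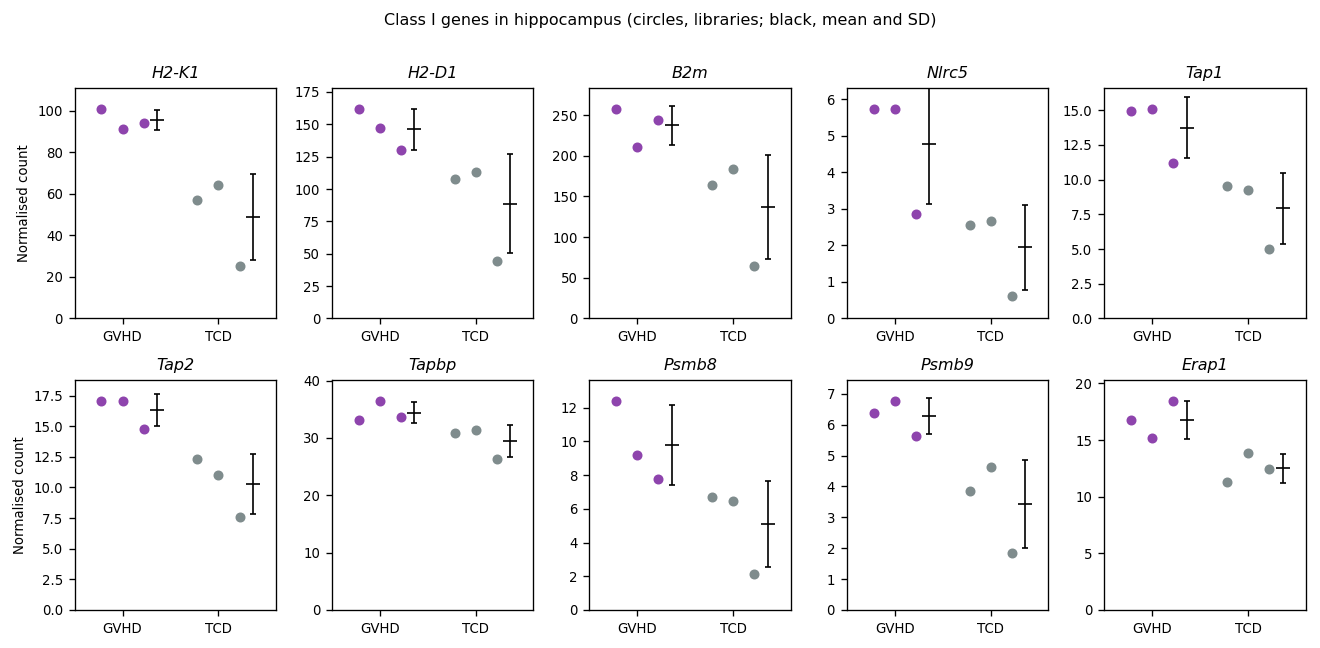
Normalised counts of the 10 genes in hippocampus, a panel per gene, with GVHD libraries left and TCD libraries right, in library order 1 to 3. Points are libraries and black marks give the mean and SD. The 3 GVHD points lie above the 3 TCD points in every panel, and TCD library 3 is the lowest point in 9 of 10 panels.

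TCD library 3 set much of the size of these differences. Without it H2-K1 gave 0.65 ± 0.09 and was the only one of the 10 called (adjusted p = 0.0360, limma), while 123 genes were called in all. H2-D1 gave 0.40 ± 0.10 (adjusted p = 0.113), B2m 0.44 ± 0.10 (adjusted p = 0.0942) and Nlrc5 0.63 ± 0.27 (adjusted p = 0.262) without it. Psmb8 gave 0.49, Psmb9 0.48 and Tap1 0.50 without it, and the median of the 10 was 0.46. The log2 fold changes were positive under each of 18 alternatives, except that Nlrc5 was left out by the stricter filter on low values and has no value there.

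Markers of other cell types also differed between the hippocampus groups. The 10 choroid plexus markers, among them Ttr and Kl, summed to 3276, 1079 and 3775 in GVHD libraries 1 to 3. In TCD libraries they summed to 111, 44.3 and 30.9. Of the 10, 9 were called higher, as were 0.319% of tested genes. Microglia markers summed to 226 to 308 in GVHD and 274 to 330.2 in TCD, and endothelial markers to 273 to 285 in GVHD and 286 to 326 in TCD. Macrophage markers summed to 1692 to 3066 in GVHD and 1436 to 2031 in TCD, and most of that sum was Apoe. Of 9 tested markers 0 were called, as against 0.479% of tested genes. An unadjusted p under 0.05 in limma was found for 2 of the 9, as against 17.0%. The 2 genes were the class II gene H2-Ab1, at 60.7 ± 47.1 in GVHD and 11.004 ± 6.61 in TCD with no overlap, and the lysozyme gene Lyz2, at 112 ± 82.1 in GVHD and 24.8 ± 16.1 in TCD (mean ± SD, n = 3 each). Neuron markers summed to 11350 to 11679 in GVHD and 12696 to 14641 in TCD, without overlap. Oligodendrocyte markers summed to 4695 to 6466 in GVHD and 3404 to 5091 in TCD. Of 12 T cell genes the table held Cd8a alone, at 2.59, 2.16 and 1.35 in GVHD and 0.698, 0.059 and 0.428 in TCD. The slope of log2 value on GC content, per 10 percentage points, was -0.04, -0.02 and -0.12 in GVHD and 0.09, 0.07 and 0.01 in TCD. The part of each of these in the class I difference was not tested. Among the 16 regulators 0 were called, as against 0.479% of tested genes, and 8 had an unadjusted p under 0.05, as against 17.0%, with Ciita at 0.93 ± 0.26 (adjusted p = 0.139, limma). Irf1 gave 0.44 on the log2 scale (adjusted p = 0.241), with 9.56, 8.0 and 7.45 in GVHD libraries and 6.75, 6.59 and 4.53 in TCD libraries.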

How the data were processed

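RNA was measured by stranded RNA-seq in 6 hippocampus and 13 sorted-cell libraries. The authors deposited normalised counts, treated here as a signal, whose totals are nearly equal by a scaling not given in the sources used here. Per the submitters' processing notes, cutadapt 1.9, STAR 2.5.2a and RSEM 1.2.30 were used with GRCm38. The labels' protocols name 2 RNA kits without saying which sample had which. Of values under 100 estimated reads, 80.1% to 81.9% in a hippocampus library and 68.4% to 74.1% in a sorted one were whole multiples of the value of 1 read (tolerance 0.02). Counts were therefore not recovered and no count test was run. Identifiers were matched to GENCODE vM21, with 182 and 203 unmatched.

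Sample titles gave the groups. Genes that reached 1 in 3 or more libraries were fitted as log2(value + 1) in limma 3.58.1 (R 4.3.3), using its variance trend. Tests were two-sided, with p adjusted by Benjamini-Hochberg across the tested genes of a table and a threshold of 0.05. Fold changes on this scale understate changes of low genes. Each table was fitted alone, and the sorted model had the API number as covariate. The genes and lists were chosen with earlier results of these data known. Named genes were the 10 members, up to 4 of each regulator, receptor and loading list by smallest p, Psmb5, Psmb6, Psmb7, Psmb10, Ciita and Irf1, and the 5 genes nearest to H2-K1, Tap1 and Nlrc5. A further gene that this rule names is not reported here. Marker genes were named after their values were seen.

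Replicate numbers were checked by correlating the deviations of same-numbered libraries from their group means. Numbers in the description field gave 0.394, 0.362, 0.166 and 0.280 between donor and GVHD host libraries, where title numbers gave 0.394, 0.170, -0.022 and 0.016. Between donor and TCD host libraries title numbers gave 0.585, 0.308 and 0.415, and description numbers gave 0.585, 0.160 and -0.517. Libraries with unlike numbers reached 0.404 (donor 4 with GVHD host 2) and 0.532 (donor 2 with TCD host 3). Donor and TCD host cells also came from different mice, so equal numbers there cannot mark the same animal. Number 1 is also the API183 library in each group. Both numberings were used as blocks, although they were not shown to mark pairs. For these 2 comparisons the blocked values stand beside the calls that they change. Title numbers in hippocampus (-0.163, -0.040 and -0.183) and between hosts (0.222, with the rest below 0) did not pair. Alternatives covered the pseudocount, the filter, scaling, the trend, library weights, blocks, GC content, the API covariate and each library left out.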

Additional observations from a re-analysis of the deposited data

Results flagged for a closer look

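In groups of 4 to 6 libraries, the gap between the highest or lowest library and its neighbour was set against the range of the group (Dixon's test at 95%). Of 20 groups, 4 held a library that stood apart, where chance gives about 1 in 20. Nlrc5 was 175 in donor library 1, the highest of 6, and 81.5 in GVHD host library 1, the highest of 4. Tap1 was 524 in donor library 1, the highest of 6. All 3 are values of API183 libraries. Erap1 was 93.5 in GVHD host library 4, the lowest of 4.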

How the results depend on the processing

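Under the alternatives run, the hippocampus differences of the 10 genes stayed positive, with no value for Nlrc5 under the stricter filter. Genes called there, 69 in all, numbered 39 with quantile normalisation, 0 without the variance trend, 990 with library weights, 16 with the replicate block by title number, 36 with GC correction, 19 with both, and 0 to 123 with 1 library left out. Of the 10 genes, 2 were called with library weights (Tap1 0.71, adjusted p = 0.0403, and Tap2 0.62, adjusted p = 0.0212, limma) and 0 to 1 with 1 library left out.

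For GVHD against TCD host microglia, 14 genes were called in all, 28 with library weights, 2 with the title block, 2 with block and GC correction, 1 in API197 alone, 0 with the description block, and 6 to 28 with 1 library left out. Of the 10 genes, against 2, the count was 0 with either replicate block, 0 with title block and GC correction, 0 in API197 alone, 1 with GC correction (Nlrc5), 1 without the API covariate (H2-D1), and 0 to 2 with 1 library left out. With the title block, which the check of numbers did not bear out, H2-D1 gave 1.21 (adjusted p = 0.178) and Nlrc5 1.37 (adjusted p = 0.221). With the description block they gave 1.26 (adjusted p = 0.462) and 1.52 (adjusted p = 0.422). Library weights added a call of Psmb9. No estimate of the 10 genes changed sign between the hosts.

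For donor macrophages against GVHD host microglia, H2-K1 turned to -0.008 after rescaling to equal totals, and B2m to 0.010 with library weights, 0.011 with the title block and 0.024 with block and GC correction. None of these passed. For donor macrophages against TCD host microglia, Erap1 turned to 0.014 with the title block and 0.021 with block and GC correction. For donor macrophages against GVHD host microglia, Erap1 was not called with the title block (-0.21, adjusted p = 0.0985) or with block and GC correction (-0.20, adjusted p = 0.178). For the 10 genes, the blocks changed no call other than those given here and in the results. The cause of these changes was not tested. The lowest hippocampus value of Nlrc5 rested on about 10 reads. Its SE of 0.35 was close to the 0.33 of B2m, which had far more reads. Adding 1 before the log shrinks the spread of low values, so these SEs do not show equal precision. With a pseudocount of 0.1 the log2 fold change of Nlrc5 was 1.42.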
